A study of Mus musculus with 16 samples.

Results

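The comparison described here is the genotype by challenge interaction in mouse lung, that is, whether ovalbumin (OVA) challenge changed a transcript by a different amount in mice labelled as Prdm11 knockouts than in wild type mice. It was taken from all 16 arrays of the series as (knockout challenged minus knockout untreated) minus (wild type challenged minus wild type untreated), in log2 intensity and across every tested probe, and was repeated on 15 arrays without wild type challenged replicate 4. Each array carried total RNA extracted from a portion of lung tissue, each from a different female C57BL/6N mouse, hybridised to an Illumina bead array. The groups, with 4 mice in each, were wild type untreated and Prdm11 knockout untreated at 22 weeks of age, and wild type challenged and Prdm11 knockout challenged at 35 weeks. Challenged mice had received 10 µg OVA in 2 mg alum intraperitoneally and were then exposed 3 times to a 1% OVA aerosol for 30 min. Untreated mice are labelled as having had no treatment, and the sources used here do not say whether they had been sensitised. Age changed together with challenge in both genotypes, so the 2 cannot be told apart. The labels do not describe the knockout allele.

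Prdm11 belongs to the PRDM family, whose members carry a PR domain related to histone methyltransferase domains and act as regulators of transcription. Repeated inhalation of OVA by sensitised mice is a standard model of allergic asthma, in which type 2 helper T cells recruit eosinophils, goblet cells fill with mucus and macrophages take on an alternatively activated state. An interaction asks only whether this response differed in size or direction between the genotypes, not whether it occurred.

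The genotype labels could not be checked on Prdm11, because 0 probes were named for it. They were examined instead on other genes of its chromosome. Among the untreated mice, 3 of 17810 probes were called for genotype (0.0168%; limma, Benjamini-Hochberg adjusted p under 0.05, the rule for every call here), and all 3, for Lrrc57, Rmdn3 and Tmem87a, lie on chromosome 2, as Prdm11 does. Of the 10 probes with the smallest p for genotype in untreated mice, 6 lie on that chromosome. It holds 1060 of the 12648 tested genes. The 3 called genes are not the nearest to Prdm11, since Pamr1 and Cd59a lie between in the reference's order. Between untreated genotypes Pamr1 differed by -0.32 and Cd59a by -0.73. Cry2, on the other side of Prdm11, differed by 0.19, and none of these was called. Lrrc57, which encodes a leucine-rich repeat protein, stood at log2 7.72, 7.77, 7.82 and 7.77 in the untreated wild type mice and at 6.39, 6.58, 6.45 and 6.53 in the untreated mice labelled knockout. After challenge the order was the other way round, with 6.68, 6.41, 6.89 and 6.40 in the wild type and 7.48, 7.33, 7.01 and 7.48 in the mice labelled knockout. Neither pair of groups overlapped.

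Tmem87a, a gene of a Golgi membrane protein, turned round in the same manner from the opposite side. Its level was 6.85, 6.86, 7.01 and 7.18 in untreated wild type mice and 8.59, 8.45, 8.43 and 8.67 in untreated mice labelled knockout, against 8.31, 7.26, 7.72 and 8.08 in challenged wild type mice and 6.86, 6.71, 7.84 and 6.85 in challenged mice labelled knockout. The challenged groups overlapped here only through replicate 3 of the mice labelled knockout. Rmdn3, whose product tethers mitochondria to the endoplasmic reticulum, differed by -1.13 ± 0.16 (SE, here and below; limma, adjusted p = 0.0318) between the genotypes in untreated mice and by 0.51 ± 0.16 (adjusted p = 0.0201) in challenged mice. A second Rmdn3 probe gave an interaction of 0.19 (adjusted p = 0.502), so the probes of that gene disagree. Ccndbp1, which encodes a binding partner of cyclin D1 and was chosen after its values were seen, differed by -0.97 ± 0.18 without challenge (adjusted p = 0.292, not called) and by 0.57 ± 0.18 with it (adjusted p = 0.0201). The interactions were 2.01 ± 0.18 for Lrrc57 (adjusted p = 0.000104), -2.34 ± 0.33 for Tmem87a (0.00686), 1.64 ± 0.23 for Rmdn3 (0.00686) and 1.54 ± 0.26 for Ccndbp1 (0.00756).

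**Figure D1:**
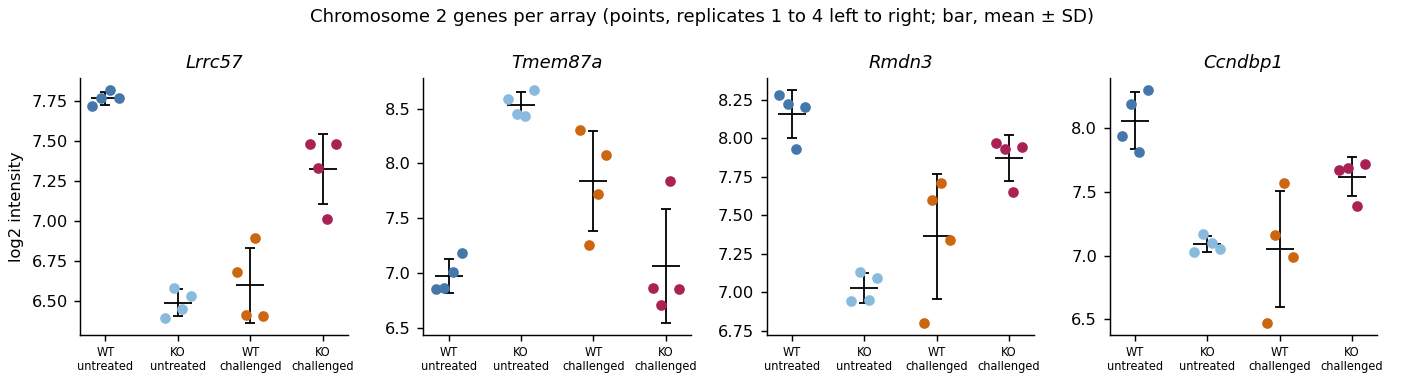
Log2 intensity per array (y axis) of Lrrc57, Tmem87a, Rmdn3 and Ccndbp1 in the 4 groups (x axis), with points for the 4 mice and bars for the mean ± SD. Untreated mice of the 2 genotypes lie apart at every gene, and the means of the challenged mice lie in the opposite order, with Lrrc57 at 7.72 to 7.82 and 6.39 to 6.58 without challenge and at 6.40 to 6.89 and 7.01 to 7.48 with it.

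The 2 treatments therefore disagreed on which genotype label goes with which level of these genes. Serf2, also on chromosome 2, did not turn round: it was higher in the mice labelled knockout by 0.75 without challenge (adjusted p = 0.851, not called) and by 0.59 with it (adjusted p = 0.0097). Pkn3, a protein kinase gene of that chromosome, differed by 0.88 without challenge (adjusted p = 0.963) and by -0.12 with it (adjusted p = 0.643). Pym1, on chromosome 10, kept its direction, at 1.01 (adjusted p = 0.425) and 1.08 (adjusted p = 0.00111). The direction of every interaction below rests on the labels, which were used as given, and the animals are called mice labelled knockout throughout. Whether animals or arrays were exchanged was not tested.

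Wild type challenged replicate 4 stood apart from the other arrays, with correlations of 0.676 to 0.842 to them, while all other pairs correlated at 0.877 or above. The deposited distributions were already alike, with array medians of 85.4 to 86.5. The 640 tested probes of odour, pheromone and taste receptor genes, which belong to sensory tissues and serve here as a gauge of the dim end of each array, had a median level of 6.28 to 6.42 in the 8 untreated mice. In challenged wild type mice their median was 6.53, 6.47, 6.44 and 6.86, and in challenged mice labelled knockout 6.21, 6.17, 6.3 and 6.25, so the challenged groups did not overlap and 1 challenged mouse labelled knockout lay within the untreated range. Of these probes, 60 were called lower in the interaction and 2 higher. Only probes above a set level on at least 4 arrays were tested, and the challenged wild type arrays alone could supply these. Such a filter favours a difference, and its part in the separation of the challenged groups and in this split was not tested. As measured on the tested probes, this gauge moved with the interaction, and the counts with it as a covariate are given below.

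In all, 1662 of 17810 probes were called in the interaction (9.33%), 1009 with a higher and 653 with a lower response in the mice labelled knockout. Of these, 309 and 176 differed at least 2-fold. Cyclic loess scaling of the arrays gave 1663 calls split as 1195 higher and 468 lower. On the 15 arrays 2725 were called (15.3%), 1337 higher and 1388 lower. All 1662 were called there too and had the same sign, and 1063 probes were added. Challenge itself was called for 5244 probes in wild type mice (29.4%) and 2954 in mice labelled knockout (16.6%), and genotype for 7879 in challenged mice (44.2%). Leaving out 1 array in turn gave between 410 calls, without wild type untreated replicate 1, and 3611, without wild type challenged replicate 3. With the receptor median as a covariate 487 probes were called, 169 higher and 318 lower. On the 15 arrays with the same covariate 0 were called by limma, 1934 had an unadjusted p under 0.05 and the median standard error was 0.279, against 0.175 on the same arrays without the covariate.

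The called probes differed mainly among the challenged mice. Of the 1662, 1655 were also called for genotype in challenged mice, all 1662 with the sign of the interaction, and 3 were called in untreated mice. Among the 1009 higher probes, 555 fell with challenge in wild type mice with no call in mice labelled knockout, 301 rose in mice labelled knockout with no call in the wild type, and 71 did both. Among the 653 lower probes, 394 rose in wild type mice alone by the same reading, 132 fell in mice labelled knockout alone and 31 did both. These sentences describe how the interaction is made up and add no test to it. The higher probes were often dim: 48.66% of them exceeded the array's 40th percentile (log2 6.24 to 6.25, the gauge of background here) on at most 1 of the 4 challenged wild type arrays, against 10.39% of all tested probes. Of the lower probes, 33.23% did so on at most 1 of the 4 arrays of challenged mice labelled knockout, against 12.37% of all. Differences that involve such a group are not exact sizes. The filter asked for 4 arrays above that level, and 189 of the higher probes met it only through the challenged mice labelled knockout and 58 of the lower probes only through 1 group. Of all tested probes, 1687 met it only through 1 group. The filter favours a difference in such probes, so the genes called in the interaction among them are described below without a test.

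**Figure D2:**
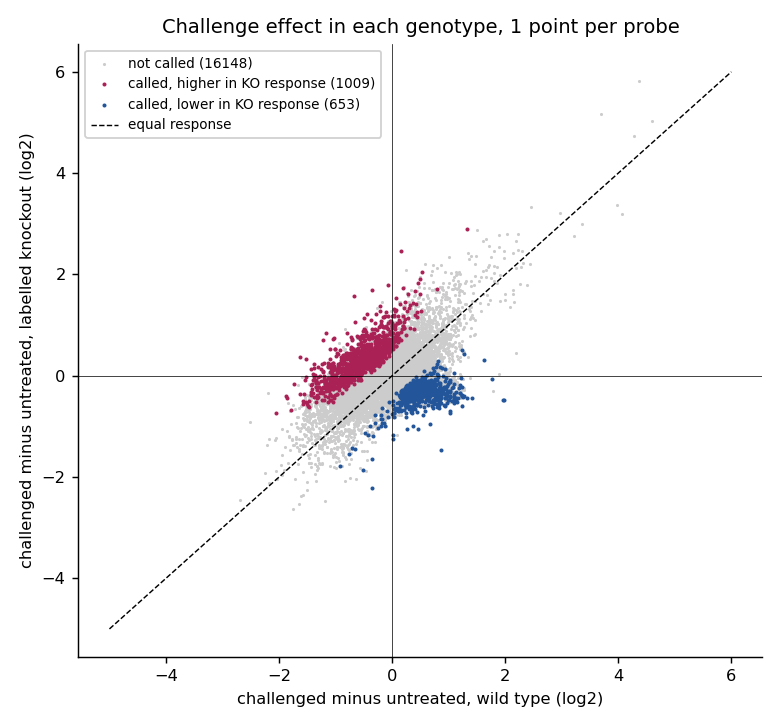
Challenge effect in wild type mice (x axis, log2) against that in mice labelled knockout (y axis, log2) for each of the 17810 tested probes, with called interaction probes in colour. The 1009 higher probes lie above the line of equal response and mostly where the wild type fell, and the 653 lower probes lie below it, mostly where the wild type rose.

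When each gene was represented by its brightest probe on average, 690 of 12648 genes were called higher (5.46%) and 489 lower (3.87%), and on the 15 arrays 924 (7.31%) and 1048 (8.29%). Every list count below is to be read against the shares on the same arrays. Without replicate 3 of the challenged mice labelled knockout, 881 of 17810 probes were called higher and 495 lower. Called genes were spread over the genome. Per chromosome, between 5.41% and 11.3% of genes were called, and chromosome 2 had 116 of 1060, or 10.9%.

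Several of the largest higher interactions were in genes of muscle. Myh4, the fast myosin heavy chain of skeletal muscle, stood at 7.36, 7.51, 7.26 and 7.33 in untreated wild type mice, 7.53, 7.32, 7.37 and 6.92 in untreated mice labelled knockout, 8.08, 9.18, 6.19 and 6.64 in challenged wild type mice and 10.67, 9.46, 9.63 and 9.24 in challenged mice labelled knockout. The challenged groups did not overlap, though the wild type mice were widely spread. The interaction of 2.31 ± 0.68 (limma, adjusted p = 0.0455; 2.01 and 0.0411 on the 15 arrays) was no longer called in 13 of 16 single-array omissions. Pygm, the muscle glycogen phosphorylase, had an interaction of 2.06 ± 0.40 (adjusted p = 0.0127), from a rise of 1.69 in mice labelled knockout and -0.36 in wild type mice. Its level was 6.61, 7.51, 5.68 and 6.07 in challenged wild type mice and 8.46, 8.19, 8.77 and 8.35 in challenged mice labelled knockout, with no overlap. For Cpt1b, the muscle form of the enzyme that carries fatty acids into mitochondria, the probe with the largest value gave 1.86, but it exceeded the 40th percentile in 0 of 12 mice outside the challenged mice labelled knockout and is given without a test. The brighter Cpt1b probe gave 0.86 ± 0.40 (adjusted p = 0.155).

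The skeletal muscle list as a whole had 2 of 24 tested genes called higher, these being Myh4 and Pygm, and 0 lower, with a median interaction of 0.90 against -0.01 over all genes, and all 24 members were positive. The list's median challenge effect was 1.25 in wild type mice and 2.02 in mice labelled knockout. Without replicate 3 of the challenged mice labelled knockout 1 gene was called and the median interaction was 0.76. Its mean level per array was 8.33 to 9.33 in untreated mice, 10.37, 10.94, 8.40 and 9.75 in challenged wild type mice and 11.17, 10.51, 11.17 and 11.03 in challenged mice labelled knockout. The challenged groups thus overlapped, at 10.94 against 10.51. The cardiac muscle list had 0 of 33 genes called and a median of 0.47, with the smallest p for Hspb7, a small heat shock protein of heart and muscle (1.85 ± 0.64, adjusted p = 0.0751). With the skeletal mean as a covariate, Myh4 gave 1.41 (adjusted p = 0.088) and Pygm 1.46 (0.0114), and 1407 probes were called in all. In bulk tissue, more cells of a type and more RNA per cell cannot be told apart, nor can muscle within the lung and muscle taken along with it.

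Other genes with large higher interactions were not of muscle. Ccdc144b stood at 7.07, 6.77, 7.40 and 6.77 and at 7.19, 6.79, 6.94 and 7.36 in untreated wild type mice and mice labelled knockout. After challenge it was at 6.34, 6.61, 6.12 and 6.21 in wild type mice and 8.15, 8.72, 8.84 and 8.85 in mice labelled knockout. The untreated groups overlapped fully, and the challenged groups lay on either side of them. Its interaction of 2.26 ± 0.26 (limma, adjusted p = 0.00232) is a 4.77-fold difference and was called in all 16 fits without 1 array. Challenge effects called in opposite directions were also found for Pamr1, a gene associated with muscle regeneration, with -1.05 in wild type mice, 0.73 in mice labelled knockout and an interaction of 1.78 ± 0.29 (adjusted p = 0.00756), and for Ttc14, with -1.02, 0.74 and 1.77 ± 0.29 (adjusted p = 0.00756). On the challenged wild type arrays Pamr1 exceeded the 40th percentile in 1 of 4 mice and Ttc14 in 0 of 4, so those levels lie at the dim end of the arrays.

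Cd59a, an inhibitor of the complement membrane attack complex, fell with challenge in wild type mice by 1.63 and had a challenge effect of 0.36 (adjusted p = 0.46) in mice labelled knockout. Its interaction was 1.99 ± 0.42 (limma, adjusted p = 0.0162) and 1.56 on the 15 arrays, since wild type challenged replicate 4 stood at 7.12 and the other challenged wild type mice at 8.80, 9.09 and 8.71. It lies on chromosome 2 beyond Prdm11 in the reference's order, and in untreated mice it was at 9.80 to 10.23 in the wild type and 9.27 to 9.41 in mice labelled knockout, without overlap. Sgms1, a sphingomyelin synthase, fell by 1.52 in wild type mice, with an interaction of 1.85 ± 0.35 (adjusted p = 0.0112). For Trim29, an epithelial tripartite motif protein, 1 probe that passed the filter only through the challenged mice labelled knockout gave 1.73 and the brighter probe 0.64 (adjusted p = 0.0704).

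Among the largest lower interactions after Actb and Tmem87a was that of Car4, a carbonic anhydrase on the surface of alveolar capillaries. Its level was 10.22, 10.42, 9.98 and 10.25 in untreated wild type mice, 10.78, 10.63, 10.50 and 10.61 in untreated mice labelled knockout, 9.79, 9.44, 10.08 and 10.10 in challenged wild type mice and 8.61, 8.85, 7.32 and 8.90 in challenged mice labelled knockout. The last group lay below all others. The interaction was -1.85 ± 0.38 (limma, adjusted p = 0.014; -1.77 and 0.00803 on the 15 arrays), and it was called in all 16 fits without 1 array. Foxf1, a transcription factor of lung mesenchyme and capillary endothelium, followed it with -0.80 ± 0.17 (adjusted p = 0.0165), at 6.86 to 7.04 in challenged mice labelled knockout and 7.49 to 8.17 in all other mice.

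Car4 and Foxf1 were the called members among 44 tested endothelial genes (4.55%), with 0 higher. Over all genes 3.87% were lower and 5.46% higher, so the share called lower was near that of all genes. The list's median was -0.52 and 35 of 44 were below 0. Its mean level was 9.63 to 9.79 in untreated mice, 9.0, 8.79, 9.34 and 8.74 in challenged wild type mice and 8.80, 8.86, 7.70 and 8.76 in challenged mice labelled knockout, so the challenged groups overlapped and replicate 3 of the mice labelled knockout was lowest. Without that mouse the median was -0.23, with 4 genes lower and 1 higher. The alveolar type 1 list, whose cells form the gas-exchange surface with the capillaries, had 0 of 19 called and a median of -0.39, or -0.13 without that mouse. Ager, its member with the smallest p and a receptor abundant on these cells, stood at 10.87, 11.87, 8.62 and 11.12 in challenged mice labelled knockout and at 11.79 to 12.43 in challenged wild type mice (interaction -1.40 ± 0.64, adjusted p = 0.145).

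The other large lower interactions were shaped by the challenged wild type arrays. Rnf182, a ubiquitin ligase, stood at 6.88 to 7.57 in untreated wild type mice and 6.92 to 7.30 in untreated mice labelled knockout, then at 8.45, 8.03, 7.66 and 10.02 in challenged wild type mice and 6.55, 6.63, 6.88 and 6.77 in challenged mice labelled knockout. Replicate 4 was the highest of the wild type mice. The interaction was -1.84 ± 0.49 (limma, adjusted p = 0.0348) and -1.35 (0.00394) on the 15 arrays, a smaller difference with a smaller error. Of the genes of this kind, Tnfrsf10b, a receptor of the death ligand TRAIL, had -1.83 ± 0.47 and -1.38 on the 15 arrays, and its 3 other probes gave -0.12 to -0.86 without a call. Fam228b had -1.83 ± 0.52 and -1.27, Nbeal1 -1.76 ± 0.39 and -1.39, and Mrps14, of the small subunit of the mitochondrial ribosome, -1.76 ± 0.51 and -1.26. The kinase gene Stk35 had -1.72 ± 0.42 and -1.30, and R3hdm1 had -1.68 ± 0.46 and -1.23 with a second probe at 0.03.

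In all 7 of these genes wild type challenged replicate 4 was the highest of its group, and in 6 of 7 the 4 challenged wild type mice lay in the same order as by the receptor median, 4, 1, 2 and 3. With the receptor median as a covariate their interactions were -0.57 to -0.09 and 0 of 7 were called, against 18 still called of all 80 named called probes. The part of the dim end of the arrays in these interactions was not tested. Actb, the cytoplasmic actin often used as a reference, had the largest lower value of all at -2.47 ± 0.73 (limma, adjusted p = 0.0466), but its probes disagreed. A pair of probes gave -2.47 and -2.44, the 3 others -0.14, -0.45 and -0.67 without a call, and the pair was reversed to 0.782 and 0.728 (adjusted p = 0.718 and 0.714) on the 15 arrays with the receptor covariate.

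**Figure D3:**
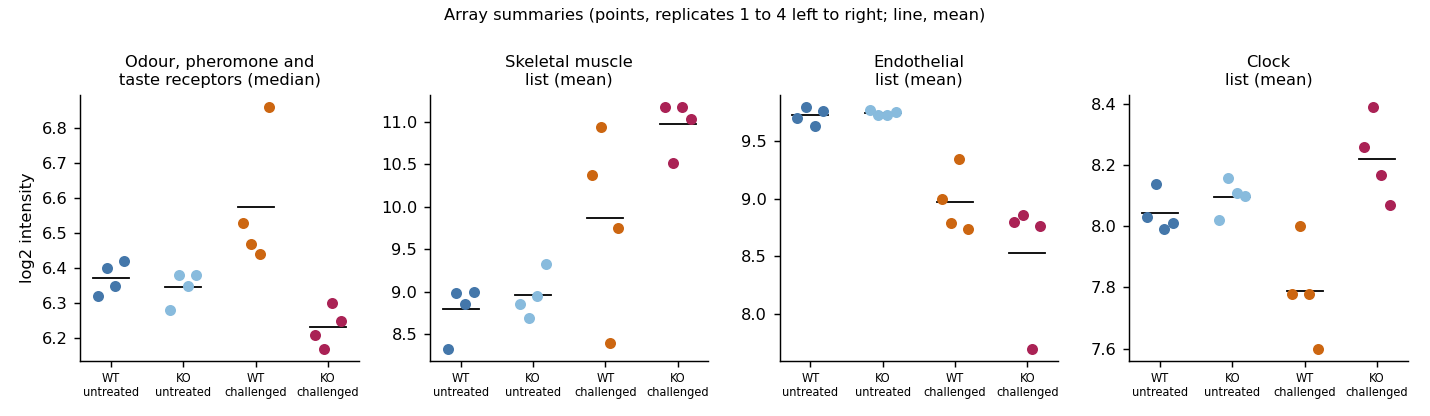
Level per array (y axis, log2 intensity) of the receptor probes (median), the skeletal muscle, endothelial and clock lists (means) in the 4 groups (x axis), with points for mice and lines for group means. The receptor median is 6.44 to 6.86 in challenged wild type mice and 6.17 to 6.3 in challenged mice labelled knockout, 1 challenged mouse labelled knockout has an endothelial mean of 7.70, and the clock means of the challenged groups lie at 7.60 to 8.0 and 8.07 to 8.39.

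Genes of the circadian clock had 4 of 16 members called higher and 0 lower, against 5.46% higher and 3.87% lower over all genes. The median was 0.65 against -0.01 over all genes, but only 9 of the 16 members were above 0. On the 15 arrays 7 were higher and 1 lower, against 7.31% and 8.29% over all genes, with a median of 0.68. In this clock, CLOCK and its partner drive genes that carry an E-box (CACGTG) and related letters, among them the Per and Cry repressors and the output factor Dbp, and the receptors ROR and REV-ERB form a second loop. The windows from 250 bases before to 50 after the annotated start are shown for the called members that the RefSeq promoter table holds (GRCm38.p6), because they are the parts of these genes where such letters are usually sought. Capitals mark ACGTG or its reverse complement CACGT, the core that the E-box contains. The windows are chr7:45704997-45705296, plus strand for Dbp, chr2:92434020-92434319, minus strand for Cry2, and chr9:68653536-68653835, plus strand for Rora.
Dbp: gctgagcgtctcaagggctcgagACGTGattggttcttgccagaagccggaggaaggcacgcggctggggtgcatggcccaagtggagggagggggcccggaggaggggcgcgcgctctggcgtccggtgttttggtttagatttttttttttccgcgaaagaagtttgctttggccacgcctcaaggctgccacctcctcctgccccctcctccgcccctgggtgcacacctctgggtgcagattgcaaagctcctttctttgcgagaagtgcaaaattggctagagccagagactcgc
Cry2: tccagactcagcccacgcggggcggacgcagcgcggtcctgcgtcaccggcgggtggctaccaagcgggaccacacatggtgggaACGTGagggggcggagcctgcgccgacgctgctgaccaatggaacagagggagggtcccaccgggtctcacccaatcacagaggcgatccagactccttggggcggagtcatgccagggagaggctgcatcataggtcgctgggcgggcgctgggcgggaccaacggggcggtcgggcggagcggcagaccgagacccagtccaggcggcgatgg
Rora: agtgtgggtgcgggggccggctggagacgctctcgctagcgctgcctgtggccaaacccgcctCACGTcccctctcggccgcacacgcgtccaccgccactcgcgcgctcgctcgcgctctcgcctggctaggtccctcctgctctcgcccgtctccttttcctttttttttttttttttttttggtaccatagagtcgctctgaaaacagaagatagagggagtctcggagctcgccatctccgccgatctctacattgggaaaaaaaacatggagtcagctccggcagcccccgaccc

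Each of these 3 windows held 1 copy of the core, and 0 of them held CACGTG or the D-box letters TTATGNAA on either strand. Per2 has no sequence shown. Of 16 tested clock members 14 had an entry, with 19 windows in all. The core was found in 9 of the 19, against 19.6% of the 32851 windows in the table, and CACGTG, whose occurrences are included in the core's, in 4 of 19 against 7.15%. TTATGNAA was found in 1 of 19 against 3.38%. A match describes letters and shows no binding.

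Per2, a repressor of the clock, stood at 8.30, 8.34, 8.03 and 8.18 in untreated wild type mice, 8.32, 8.44, 8.01 and 7.80 in untreated mice labelled knockout, 6.53, 6.87, 7.36 and 6.59 in challenged wild type mice and 8.56, 8.70, 8.18 and 7.75 in challenged mice labelled knockout. Only the challenged wild type mice lay apart, below all others. The interaction was 1.53 ± 0.30, a 2.89-fold difference (limma, adjusted p = 0.013; 1.45 and 0.00686 on the 15 arrays), and a second probe gave 1.5 ± 0.27 (adjusted p = 0.00934). Both were called in all 16 fits without 1 array. Cry2, its partner in repression and a gene of chromosome 2, had the same shape, at 7.22, 7.17, 7.03 and 6.58 and 7.21, 7.23, 7.19 and 7.14 in the untreated groups, 5.77, 5.80, 6.02 and 5.69 in challenged wild type mice and 6.67, 7.12, 6.73 and 6.65 in challenged mice labelled knockout. Its interaction was 0.78 ± 0.20 (adjusted p = 0.0291). On the challenged wild type arrays it exceeded the 40th percentile in 0 of 4 mice, and the call was lost in 7 of 16 fits without 1 array.

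Dbp, a transcription factor at the output of the clock, moved in the other genotype. It stood at 8.85, 8.95, 8.90 and 8.74 in untreated wild type mice, 8.79, 9.75, 8.95 and 8.97 in untreated mice labelled knockout, 8.75, 9.12, 8.72 and 8.86 in challenged wild type mice and 10.54, 10.71, 9.98 and 9.94 in challenged mice labelled knockout. The challenged mice labelled knockout were above all others, and the interaction was 1.18 ± 0.29 (limma, adjusted p = 0.0265; lost in 5 of 16 fits without 1 array). Rora, the fourth called member and an activator of the second loop, was named after its values were seen. It was at 6.49, 7.01, 6.57 and 6.21 in challenged wild type mice and 7.28 to 7.97 in the other 12, with an interaction of 0.77 ± 0.23 (adjusted p = 0.0466; lost in 11 of 16 fits without 1 array).

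Members that were not called on 16 arrays went both ways. Bhlhe40, a repressor that rose with challenge in both genotypes by 1.17 and 1.87, had 0.70 ± 0.22 (limma, adjusted p = 0.0514; called on the 15 arrays at 0.00669). Nr1d2, which encodes a REV-ERB receptor, had 1.60 ± 0.49 (adjusted p = 0.0522; 1.11 and 0.00958 on the 15 arrays), and a dimmer Nr1d2 probe was called at 0.92 (adjusted p = 0.0281; lost in 7 of 16 fits without 1 array). Hlf, a relative of Dbp, had -1.03 (adjusted p = 0.0761), and wild type challenged replicate 4 stood at 8.74 where its group mates were at 7.14 to 7.34. The brightest probe of Clock itself had 0.00, with a 95% interval of -0.34 to 0.34, and fell by 0.79 in each genotype. Without replicate 3 of the challenged mice labelled knockout the list again had 4 higher and 0 lower. With the receptor covariate Per2 gave 1.09 (adjusted p = 0.0973), Dbp 1.12 (0.101) and Cry2 0.52 (0.225). The time of day at which lungs were taken is not given in the sources used here.

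**Figure D4:**
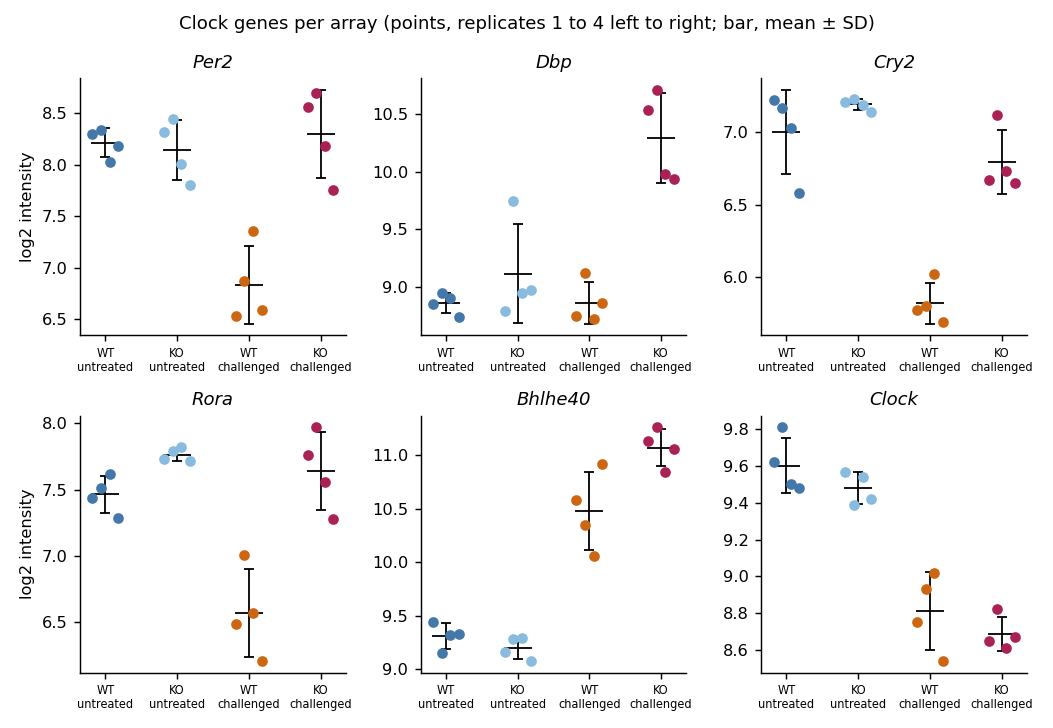
Log2 intensity per array (y axis) of 6 clock genes in the 4 groups (x axis), with points for mice and bars for the mean ± SD. Per2, Cry2 and Rora are low in the challenged wild type mice, Dbp is high in the challenged mice labelled knockout at 9.94 to 10.71, Bhlhe40 is higher in both challenged groups and Clock lower in both.

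The gene groups of the allergic response held 0 to 2 called members each, in lists too short to set their share apart from the 5.46% higher and 3.87% lower over all genes. Of 20 tested genes of alternatively activated macrophages 0 were called and the median was 0.02, while the list's median challenge effects were 1.09 and 1.22 in the 2 genotypes. Retnla, a secreted protein of these macrophages, was at 9.18, 9.51, 11.72 and 9.36 in untreated wild type mice, 9.31, 9.06, 10.92 and 9.59 in untreated mice labelled knockout, 14.79, 14.39, 13.97 and 13.72 in challenged wild type mice and 14.51, 14.79, 14.51 and 14.02 in challenged mice labelled knockout. The challenged groups overlapped and lay far above the untreated ones. Its interaction, named after its values were seen like those of Clca1 and Muc5ac, was 0.46 with a 95% interval of -1.0 to 1.93 (limma, adjusted p = 0.652), which leaves room for a 2-fold difference in either direction.

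Among 15 goblet cell and mucus genes 1 was called higher and 0 lower, with a median of 0.29 (0.09 on the 15 arrays), and 0 were called without replicate 3 of the challenged mice labelled knockout. That gene, Foxa3, a transcription factor of goblet cell differentiation, was at 7.36, 7.91, 8.05 and 7.06 in challenged mice labelled knockout and 6.43, 7.28, 6.13 and 5.99 in challenged wild type mice. The groups overlapped. Its interaction of 1.26, of a probe that passed the filter only through the challenged mice labelled knockout, was not called in 12 of the 16 single-array omissions. Clca1, the goblet cell product that marks OVA responses, was at 13.69, 13.33, 11.35 and 11.32 in challenged wild type mice and 13.04, 13.63, 13.72 and 10.94 in challenged mice labelled knockout. Untreated mice were at 6.88 to 7.22 except for replicate 3 of each genotype, at 10.27 in the wild type and 10.22 in the mice labelled knockout. The Clca1 interaction was 0.43 with a 95% interval of -2.30 to 3.15, and that of Muc5ac, the airway mucin, 0.89 with -1.09 to 2.88. Intervals of this width cannot tell an equal response from a several-fold different one.

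Of 19 T cell genes and 21 genes of MHC class II and dendritic cells 0 were called, with medians of 0.19 and 0.03. Among B and plasma cell genes 1 of 19 was called lower, Prdm1, and of 5 eosinophil genes 1 was called higher, Il5ra. Il5ra, the receptor of the eosinophil growth factor interleukin 5, was at 6.61, 6.45, 6.35 and 6.47 in challenged mice labelled knockout and 5.49 to 6.08 in the other 12, where it exceeded the 40th percentile in 0 mice. Its interaction was 0.77, given without a test because it passed the filter only through the group where it was high. It counts also among the 2 of 12 called genes of type 2 cytokine signalling. The other was Stat6, the transcription factor activated by interleukins 4 and 13, which fell in challenged wild type mice to 5.41, 5.73, 5.71 and 5.27, under the 40th percentile, and stood at 5.98 to 6.87 elsewhere. Its interaction was 1.00 ± 0.27 (adjusted p = 0.0342), lost in 10 of 16 fits without 1 array.

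Mast cell and basophil genes had 2 of 9 members lower and 0 higher, with a median of -0.47 against -0.01 over all genes, or -0.15 with 1 lower without replicate 3 of the challenged mice labelled knockout. Cd200r3, a receptor of mast cells and basophils, stood at 7.83, 7.48, 7.04 and 7.92 in challenged wild type mice and 6.35 to 6.99 in the other 12. The wild type mice were above all others, and the interaction was -1.05 ± 0.23 (limma, adjusted p = 0.0166). For Cpa3, the mast cell carboxypeptidase, 1 probe gave -1.15 ± 0.32 (adjusted p = 0.0384; lost in 11 of 16 fits without 1 array) and the other 0.13 (0.596), so the probes disagree. Of the defining proteases, Mcpt8 had -0.50 (adjusted p = 0.0557), Cma1 0.12 (0.607) and Tpsb2 0.15 (0.657), all 3 uncalled and named after their values were seen. The further proteases Mcpt1 and Mcpt9 had -0.49 (limma, adjusted p = 0.111) and -0.18 (0.54). Mcpt1 was called on the 15 arrays at -0.60 (0.0334).

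Chemokines had 2 of 22 genes called higher and 0 lower (4 higher without replicate 3 of the challenged mice labelled knockout), at a median of -0.02. Cxcl1, which attracts neutrophils, was at 7.37, 8.07, 7.25 and 7.79 in challenged mice labelled knockout and 6.51, 6.39, 6.22 and 5.93 in challenged wild type mice, without overlap (interaction 1.07 ± 0.29, limma, adjusted p = 0.0348; lost in 8 of 16 fits without 1 array). Ccl12, which attracts monocytes, was at 7.33, 7.01, 6.52 and 7.12 against 6.15, 6.32, 6.22 and 6.08, and its interaction was 0.95, without a test since it passed the filter only through the challenged mice labelled knockout. Of 14 monocyte and interstitial macrophage genes 1 was called higher and 0 lower. That gene, Cx3cr1, the fractalkine receptor of monocytes and macrophages, fell to 5.81, 5.73, 5.90 and 4.98 in challenged wild type mice, all under the 40th percentile, and was at 6.31 to 6.77 in challenged mice labelled knockout (1.08 ± 0.30, limma, adjusted p = 0.039; lost in 9 of 16 fits without 1 array).

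Of 10 haemoglobin and erythroid genes 3 were lower and 0 higher, with a median of -0.49 (-0.32 and 4 lower on the 15 arrays). Hbb-bt, an adult beta globin, was at 11.31, 11.20, 11.35 and 11.71 in untreated wild type mice and 11.92, 11.87, 11.80 and 11.57 in untreated mice labelled knockout, against 12.01, 12.37, 12.41 and 12.52 in challenged wild type mice and 11.37, 10.93, 11.57 and 11.50 in challenged mice labelled knockout. The challenged groups did not overlap, and the interaction was -1.38 ± 0.22 (limma, adjusted p = 0.00756). Alas2, the haem synthesis enzyme of red cell precursors, had -1.37 ± 0.26 (adjusted p = 0.0112) and the alpha globin Hba-a1 -1.26 ± 0.23 (0.00983), all 3 called in all 16 fits without 1 array. Another beta globin, Hbb-b2, had 0.13 with a 95% interval of -0.64 to 0.90 (adjusted p = 0.816), and the haem synthesis genes Urod and Fech had 0.19 and -0.08, all named after their values were seen. Hba-a1 lay among the brightest ranks of the arrays, at 13.53 to 15.48, where values of different arrays coincide. The amount of blood in each lung sample is not given in the sources used here.

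Surfactant and alveolar type 2 genes had 3 of 21 called higher and 0 lower, although the list's median was below 0 at -0.25, and 0.08 without replicate 3 of the challenged mice labelled knockout. Of the 3, Fasn passed the filter only through the challenged mice labelled knockout, and without it 2 were higher. Of the 21 members 6 were above 0, and the surfactant protein genes Sftpc and Sftpb had -0.81 and -0.96, both uncalled. Sftpd, the surfactant protein D that binds microbes, was at 15.48, 15.07, 15.07 and 15.48 in challenged mice labelled knockout and 14.51, 14.18, 14.02 and 14.79 in challenged wild type mice, without overlap, and at 13.83 to 14.11 in untreated mice (interaction 0.80 ± 0.22, limma, adjusted p = 0.0376; lost in 8 of 16 fits without 1 array). The highest of these are the brightest value of the arrays, which all share, so the size of this difference is limited by the ceiling. Etv5, a transcription factor that maintains alveolar type 2 cells, fell in challenged wild type mice to 5.50, 5.50, 5.17 and 5.29, under the 40th percentile, and stood at 6.68, 7.02, 5.94 and 6.50 in challenged mice labelled knockout (1.37 ± 0.27, adjusted p = 0.013).

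Cell cycle genes went both ways, with 5 of 40 higher and 2 lower and a median of 0.20. Plk1, a kinase of mitosis, was at 7.21, 7.06, 7.23 and 7.20 in challenged mice labelled knockout and 5.83 to 6.41 in the other 12, with an interaction of 1.09. Cdc20, an activator of the anaphase-promoting complex, was at 8.39, 8.39, 8.01 and 8.19 against 6.36 to 7.21 in the other 12 (1.22 ± 0.23, limma, adjusted p = 0.0108), and its 2 other probes gave 0.97 and 0.46. Top2a, Mcm7 and Pbk, named after their values were seen because they complete the count, had 0.92, 0.84 and 0.66. Plk1, Top2a and Mcm7 passed the filter only through the challenged mice labelled knockout, and without them 2 genes were higher and 2 lower. The 2 lower genes were those of the checkpoint kinase Chek1, at -0.96 ± 0.26 (adjusted p = 0.0342), and the mitotic kinase Cdk1, at -0.91 ± 0.25 (0.0358), lost in 9 and 10 of 16 fits without 1 array. Both were highest in wild type challenged replicate 4, at 7.68 and 8.46.

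Glucocorticoid-responsive genes had 2 of 16 lower and 0 higher with a median of -0.28, and 4 lower with a median of -0.62 on the 15 arrays. Without replicate 3 of the challenged mice labelled knockout 1 was lower and the median was -0.12. Dusp1, a phosphatase that dampens MAP kinase signalling, was at 11.39, 11.47, 11.67 and 12.08 in untreated wild type mice, 11.97, 11.61, 12.62 and 11.77 in untreated mice labelled knockout, 11.20, 11.32, 11.74 and 10.31 in challenged wild type mice and 10.19, 10.32, 9.82 and 10.18 in challenged mice labelled knockout. The challenged groups overlapped only through replicate 4 of the wild type, at 10.31 against 10.32. The interaction of -1.36 ± 0.38 (limma, adjusted p = 0.039) was -1.63 on the 15 arrays (0.00394) and was no longer called in 12 of 16 single-array omissions. Errfi1, a feedback inhibitor of the epidermal growth factor receptor, had -1.30 ± 0.34 (adjusted p = 0.0321). Of 15 heat shock genes 2 were lower and 1 higher, against 3.87% lower and 5.46% higher over all genes. Of the 2 lower, Dnaja1 passed the filter only through the challenged wild type mice, and without it 1 was lower. The other, the co-chaperone Dnajb1, was at 9.35, 9.35, 9.32 and 9.35 in challenged mice labelled knockout and 9.55 to 10.41 elsewhere (-0.96 ± 0.19, limma, adjusted p = 0.013).

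Of 6 tested members of the PRDM family 2 were called lower and 0 higher, against 3.87% lower over all genes, and all 6 were below 0. A list of 6 is too short to set its share apart. Prdm10, a zinc finger member, was at 7.08, 7.37, 7.09 and 7.91 in challenged wild type mice and 6.24 to 6.92 in the other 12, without overlap (-1.04 ± 0.22, limma, adjusted p = 0.0166). Prdm1, which encodes the plasma cell regulator BLIMP1, was at 6.82, 6.85, 7.16 and 7.69 against 6.23 to 6.77 in the other 12 (-0.77 ± 0.23, adjusted p = 0.0459), lost in 11 of 16 fits without 1 array. In both genes, wild type challenged replicate 4 was highest. Interferon-stimulated genes had 3 of 32 lower and 0 higher at a median of -0.05, among them the antiviral Rsad2 (-0.94 ± 0.21, adjusted p = 0.0202) and the RNA sensor gene Ddx58 (-0.84 ± 0.24, adjusted p = 0.042).

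**Figure D5:**
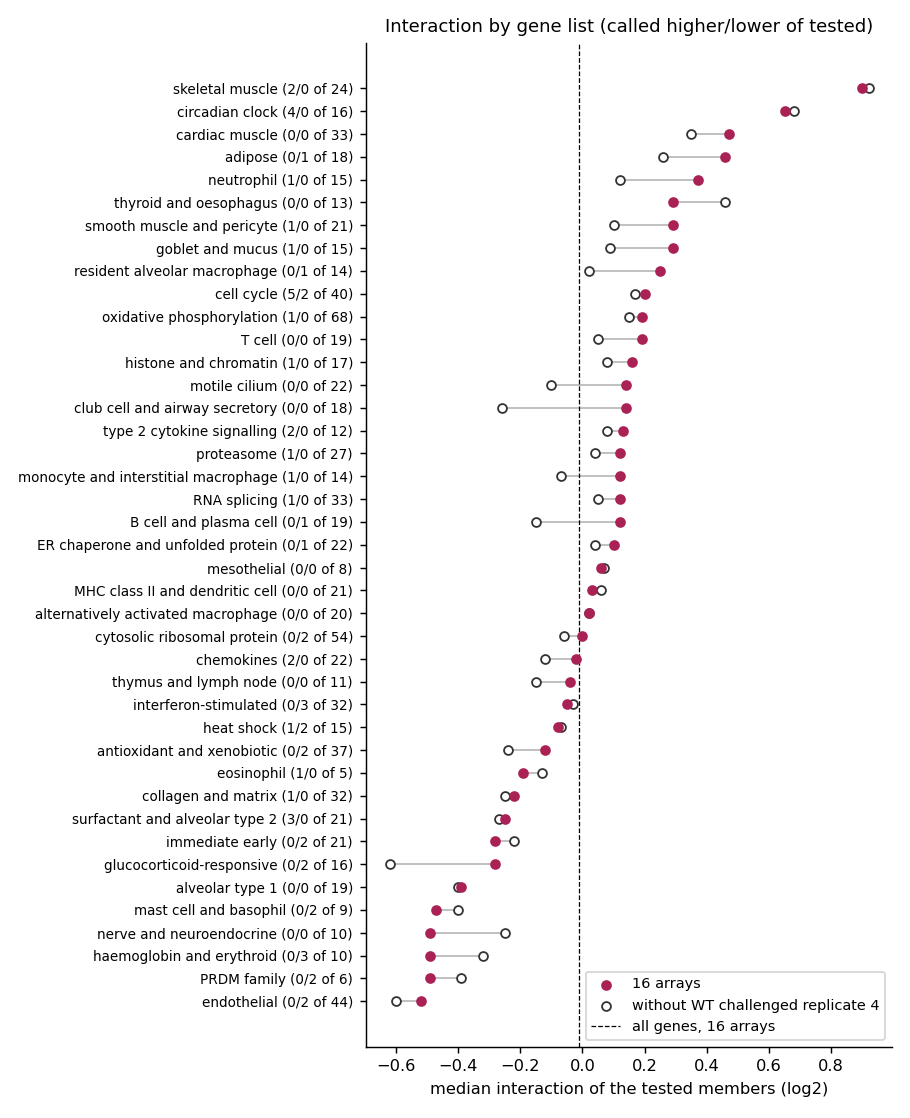
Median interaction of the tested genes of each of 41 lists (x axis, log2) on 16 arrays (filled points) and without wild type challenged replicate 4 (open points), with the numbers called higher and lower of those tested beside each name (y axis) and the median of all genes as a dashed line. Skeletal muscle at 0.90 and circadian clock at 0.65 lie highest, endothelial at -0.52 lowest, and alternatively activated macrophage at 0.02 lies near the line.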

How the data were processed

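Lung RNA of 16 mice was measured on Illumina bead arrays. The series matrix deposited by the authors holds linear intensity values per probe, produced with GenomeStudio 2011.1 per the submitters' processing notes, and their normalization and background treatment are not given in the sources used here. As sorted values of different arrays differed by at most 4.9, they were used without further normalization. Values were raised to a floor of 16 (1123 of 411152 values) and log2 transformed. Of 25697 probes, 17810 exceeded the array's 40th percentile on at least 4 arrays and were tested. Of all probes, 23978 had 1 gene symbol, 0 had several and 1719 are unnamed here. The reference annotation held 23962 of them and served for names, chromosomes and gene order.

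A mean per group was fitted with limma 3.58.1 in R 4.3.3 (lmFit, eBayes). Calls use Benjamini-Hochberg adjusted p under 0.05 over all tested probes. The script was tested on simulated data. Replicate numbers were not used to pair the mice. Of 24 pairs of same-numbered arrays 6 had deviations correlated above 0.1, in a range of -0.106 to 0.319. Whether the numbers mark pairs or batches was not tested. The number of arrays limits the precision, and p-values measure the spread between these mice.

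Genes were named by a rule: the 10 largest interactions in each direction, also among probes called on the 15 arrays, up to 5 with opposite challenge effects, and in every list that is described at most 3 members past the threshold or, failing that, the one with the smallest p. Not every gene it names is printed. The comparison, the 41 lists (1111 genes) and the rule were chosen with earlier results of these data known. The alternatives were other floors, normalizations, filters, weights, covariates, a replicate block, 1 probe per gene and leaving out each array.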

Additional observations from a re-analysis of the deposited data

Results flagged for a closer look

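The interaction test called 1662 probes. Of these, 189 higher and 58 lower probes passed the filter only through 1 group, which favours a difference. Among the genes described, the difference was called with a higher response in mice labelled knockout for Myh4 (2.31), Ccdc144b (2.26), Pygm (2.06), Lrrc57 (2.01), Cd59a (1.99), Cpt1b (1.86), Sgms1 (1.85), Pamr1 (1.78), Ttc14 (1.77), Trim29 (1.73), Rmdn3 (1.64), Ccndbp1 (1.54), Per2 (1.53), Etv5 (1.37), Foxa3 (1.26), Cdc20 (1.22), Dbp (1.18), Plk1 (1.09), Cx3cr1 (1.08), Cxcl1 (1.07), Stat6 (1.00), Ccl12 (0.95), Top2a (0.92), Mcm7 (0.84), Sftpd (0.80), Cry2 (0.78), Il5ra (0.77), Rora (0.77) and Pbk (0.66), all as log2 differences of challenge effects. Of these, Cpt1b, Trim29, Foxa3, Plk1, Ccl12, Top2a, Mcm7 and Il5ra passed the filter only through the challenged mice labelled knockout. Their calls are no test, and the brighter probes of Cpt1b and Trim29 were not called. The same holds for Fasn (1.06), and for Dnaja1 (-0.63) through the challenged wild type mice. Pamr1, Ttc14, Etv5, Cx3cr1, Stat6 and Cry2, like Nbeal1 and Chek1 below, had a dim group, so their sizes are not exact. A lower response was called for Actb (-2.47), Tmem87a (-2.34), Car4 (-1.85), Rnf182 (-1.84), Tnfrsf10b (-1.83), Fam228b (-1.83), Nbeal1 (-1.76), Mrps14 (-1.76), Stk35 (-1.72), R3hdm1 (-1.68), Hbb-bt (-1.38), Alas2 (-1.37), Dusp1 (-1.36), Errfi1 (-1.30), Hba-a1 (-1.26), Cpa3 (-1.15), Cd200r3 (-1.05), Prdm10 (-1.04), Pkn3 (-0.99), Chek1 (-0.96), Dnajb1 (-0.96), Rsad2 (-0.94), Cdk1 (-0.91), Ddx58 (-0.84), Foxf1 (-0.80) and Prdm1 (-0.77).

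Single mice stood apart from the other 3 of their group, relative to the range of that group, by Dixon's criterion at 95%, which chance alone meets in about 1 group in 20. For Dnajb1 and Hba-a1 the other 3 values tie, so the gap itself is small. Challenged replicate 3 of the mice labelled knockout did so for Pamr1 (log2 level 7.03), Tmem87a (7.84), Rmdn3 (7.65), Ccndbp1 (7.39), Dnajb1 (9.32) and the endothelial mean (7.70), and replicate 4 of that group for Muc5ac (7.09). Wild type challenged replicate 4 did so for Tnfrsf10b (10.85), Fam228b (10.97), Chek1 (7.68) and Hlf (8.74), and replicate 1 of that group for Pbk (6.20). Among untreated wild type mice the values were those of Retnla (11.72) and Clca1 (10.27) in replicate 3, of Hba-a1 (14.95) in replicate 4 and of a further Actb probe (12.60) in replicate 1. Among untreated mice labelled knockout they were those of Clca1 (10.22) and the haem synthesis gene Urod (9.85) in replicate 3 and of Cxcl1 (5.93) and Top2a (5.49) in replicate 4.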

How the results depend on the processing

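The number of called interactions depended on which arrays were used. Leaving out 1 array in turn gave 410 to 3611 calls, with 313 to 1866 higher and 97 to 1745 lower. The count moved by over 1.5 times without wild type untreated replicate 1 (410), 2 (893) or 3 (508), untreated knockout replicate 2 (503), 3 (559) or 4 (471), wild type challenged replicate 1 (1025), 2 (2765), 3 (3611) or 4 (2725), and challenged knockout replicate 1 (663), 2 (820) or 4 (742). In the same fits challenge was called for 3256 to 6903 probes in wild type mice and 2095 to 5424 in mice labelled knockout, and genotype for 1 to 4 probes in untreated and 6389 to 8715 in challenged mice. Array weights gave 3665 calls (1809 higher, 1856 lower), the 60th percentile filter 408 lower, 1 probe per gene 664 higher and the receptor covariate 487 (169 and 318). The cause of these moves was not tested. A floor of 32, quantile normalization, median centring, cyclic loess, no filter, a trended robust fit, the skeletal covariate and a replicate block gave 1670, 1680, 1678, 1663, 1590, 1755, 1407 and 1857. With the replicate block, genotype in untreated mice was called for 1 probe. Added after the data were seen, a filter set on 15 arrays gave 2713 calls (1375 lower), and the 15 arrays with the receptor covariate gave 0 by limma (0 higher, 0 lower), against 1934 at an unadjusted p under 0.05. In that last fit 76 of 80 named called probes lost their call and 4 reversed, namely those of Actb at 0.782 and 0.728, Stat6 at -0.036 and Maff, a small MAF transcription factor, at 0.068. List medians without wild type challenged replicate 4 or challenged knockout replicate 3 (the latter added) were 0.022 and 0.333 for resident alveolar macrophages, 0.123 and 0.20 for neutrophils, 0.102 and 0.265 for smooth muscle, -0.318 and -0.468 for erythroid, -0.621 and -0.121 for glucocorticoid-responsive, -0.398 and -0.147 for mast cell, -0.069 and 0.406 for monocyte, -0.115 and 0.202 for chemokine and -0.273 and 0.078 for surfactant genes. Signal over background limits the dim genes, since 48.66% of the higher probes were dim in challenged wild type mice.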
